A study of Mus musculus with 15 samples.

Results

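A set of 36 mouse genes of the peroxisome was followed across the PGC-1a isoforms in cultured muscle cells, 12 that build the organelle (the Pex genes) and 24 that encode its enzymes, transporters and channels. They were chosen by name, with earlier results of these data known, so their counts beside the shares of all clusters are descriptive. A gene counted as measured where the exon array held a transcript cluster named to it alone. By that rule 32 of the 36 were measured, 11 biogenesis genes and 21 enzyme and transporter genes, each by 1 cluster, among 14860 genes named in the whole table. Pex10 had no cluster named to it, and Decr2, Gnpat and Acaa1a fell only in clusters named to several genes, so these 4 have no value here. The cells were primary mouse myoblasts differentiated into myotubes and, 48 h into differentiation, transduced with adenovirus (multiplicity of infection 100). The 5 groups of 3 arrays each were PGC-1a1 myotubes, PGC-1a2 myotubes, PGC-1a3 myotubes, PGC-1a4 myotubes, and control myotubes with GFP alone. The isoform viruses also express GFP, from a promoter of their own, so virus and GFP are shared by all 5 groups. Cells received fresh medium 12 h later and were harvested at about 60 h. The isoforms were forced from a virus. Whether the 3 arrays of a group are separate cultures is not stated in the labels, and the spread that the p-values rest on may be technical.

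PGC-1a is a transcriptional coactivator that docks on nuclear receptors, and its gene, Ppargc1a, yields several isoforms from alternative promoters and splicing. Peroxisomes shorten very long chain and branched fatty acids, start ether lipid synthesis and both make and destroy hydrogen peroxide. Their matrix proteins are made in the cytosol and imported by receptors that dock on the membrane, release their cargo and are pulled out again, while the shortened acyl groups leave as carnitine esters or free acids for mitochondria, which are abundant in muscle.

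The deposited values are log2 signals per transcript cluster, where a step of 1 is a doubling of signal. A gene was called when its limma adjusted p, taken over all 23332 clusters of the comparison, was under 0.05. Array medians lay between 5.48 and 5.66 log2 and lower quartiles between 3.86 and 4.05 log2. Markers of myotubes were high on every array, with list means of 11.05 to 11.35 log2, those of myoblasts list means of 10.12 to 10.36 log2, and markers of macrophages, endothelium, adipocytes and fibroblasts had list means of 4.06 to 5.46 log2. The macrophage list (6 genes) averaged 4.15 to 4.25 log2 on the PGC-1a4 arrays and 4.52 to 4.61 log2 on the PGC-1a3 arrays, against 4.37 to 4.50 log2 on the GFP arrays. Of its 6 genes 2 lay below the lower quartile on every array, so these means are near background. The myotube list (10 genes) averaged 11.07 to 11.12 log2 on the PGC-1a1 arrays and 11.05 to 11.09 log2 on the PGC-1a3 arrays, against 11.24 to 11.31 log2 on the GFP arrays. The myoblast list (6 genes) averaged 10.12 to 10.17 log2 on the PGC-1a3 arrays, against 10.25 to 10.36 log2 on the GFP arrays. With PGC-1a2, 1 of its genes was called higher and 2 lower, where 4.56% of all clusters were called higher and 4.77% lower. An F-test over the 5 groups called 4 of the 6 myoblast and 5 of the 10 myotube markers, where 31.3% of all clusters were called. Des is in both lists. The Ppargc1a cluster read 12.55 to 12.67 log2 with PGC-1a1, 8.85 to 8.90 with PGC-1a2, 8.80 to 9.15 with PGC-1a3 and 10.34 to 10.61 with PGC-1a4, against 8.12 to 8.88 log2 with GFP. It was called higher with PGC-1a1 and PGC-1a4 (4.08 and 1.93 log2), but not with PGC-1a2 (0.35 ± 0.16 log2, limma adjusted p = 0.22) or PGC-1a3 (0.42 ± 0.16 log2, adjusted p = 0.14), whose arrays overlapped GFP, so forced expression is not seen at this cluster in those groups. The labels and files do not say which isoforms its probes cover, and the responses below are not scaled to dose. The part of the marker differences in the results below was not tested. In such bulk RNA, fewer cells of a type and less RNA per cell cannot be told apart. One array stands apart, GFP replicate 2: it correlated at 0.982 and 0.983 with the other GFP arrays, which correlated at 0.991 with each other. On it 25 of the 32 peroxisome genes read lower than the mean of the other GFP arrays, with a median difference of -0.19 log2, and the fibroblast list read higher by a median of 0.45 log2. Counts of genes called against GFP are therefore given with and without it.

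PGC-1a1 and PGC-1a4 went with higher signals of many peroxisomal enzymes, and PGC-1a2 with lower signals of several enzymes. Against GFP, 9 of the 32 genes were called higher with PGC-1a1 and 0 lower, where 4.44% of all clusters were called higher and 2.4% lower. With PGC-1a4, 16 were called higher and 2 lower, where 7.05% of all clusters were called higher and 7.22% lower. With PGC-1a2, 2 were called higher and 7 lower, where 4.56% were called higher and 4.77% lower. With PGC-1a3, 2 were called higher and 2 lower, where 5.02% were called higher and 2.97% lower, a share of calls near the background. Median changes of the 32 genes were 0.22, -0.13, -0.02 and 0.30 log2 for PGC-1a1, PGC-1a2, PGC-1a3 and PGC-1a4 against GFP, and those of all clusters were -0.03, -0.03, -0.02 and -0.02 log2. Without GFP replicate 2 the medians of the 32 genes were 0.16, -0.18, -0.08 and 0.23 log2 in the same order. Those of all clusters were then -0.006, -0.007, 0.0007 and 0.005 log2. The 4 comparisons share the 3 GFP arrays. An F-test over the 5 groups called 23 of the 32 genes, where 31.3% of all clusters were called.

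The share over all clusters counts many with no symbol or little signal, and clusters more like these genes were called more often. Among the 8704 clusters with 1 symbol and a mean signal above that of the median cluster, a comparison chosen after the data were seen, 10.2% were called higher and 4.39% lower with PGC-1a1, beside 8 higher and 0 lower of the 27 peroxisome genes in that range. With PGC-1a2 the shares were 9.36% higher and 10% lower, beside 1 higher and 7 lower of the 27. With PGC-1a3 they were 10.7% and 6.14%, beside 2 and 2, and with PGC-1a4 15.4% and 14%, beside 15 and 2. The F-test called 62.2% of these clusters and 21 of the 27 genes. Between isoforms, PGC-1a1 against PGC-1a2, PGC-1a3 and PGC-1a4 gave 38.3%, 28.9% and 19.1% of these clusters, beside 18, 10 and 3 of the 27 genes. PGC-1a2 against PGC-1a3 and PGC-1a4 gave 18.6% and 49.3%, beside 8 and 19, and PGC-1a3 against PGC-1a4 45.6%, beside 16.

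Without GFP replicate 2, the counts against GFP were 7 higher and 0 lower with PGC-1a1, 2 higher and 10 lower with PGC-1a2, 3 higher and 2 lower with PGC-1a3, and 13 higher and 2 lower with PGC-1a4. The shares of all clusters called higher and lower were then 3.48% and 2.91% with PGC-1a1, 3.51% and 5.58% with PGC-1a2, 3.27% and 3.21% with PGC-1a3, and 5.97% and 8.39% with PGC-1a4, so the balance of all clusters moved to lower calls in the 4 comparisons too. Without PGC-1a1 replicate 2, 5 genes were called with PGC-1a1, where 4.08% of all clusters were called. Without GFP replicate 3, and likewise without PGC-1a2 replicate 3, 1 gene was called higher and 4 lower with PGC-1a2. Of all clusters 5.74% and 5.59% were then called. Centring each array on its median left 2 higher and 3 lower with PGC-1a2 and gave 3 higher and 1 lower with PGC-1a3, and quantile normalization gave 2 higher and 5 lower with PGC-1a3. Of all clusters 5.8%, 4.83% and 9.69% were called, in that order. After median centring the clusters called with PGC-1a1 were 1110 higher and 214 lower, against 1036 and 560 as deposited, and those called with PGC-1a4 were 1504 higher and 975 lower, against 1646 and 1685.

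**Figure D1:**
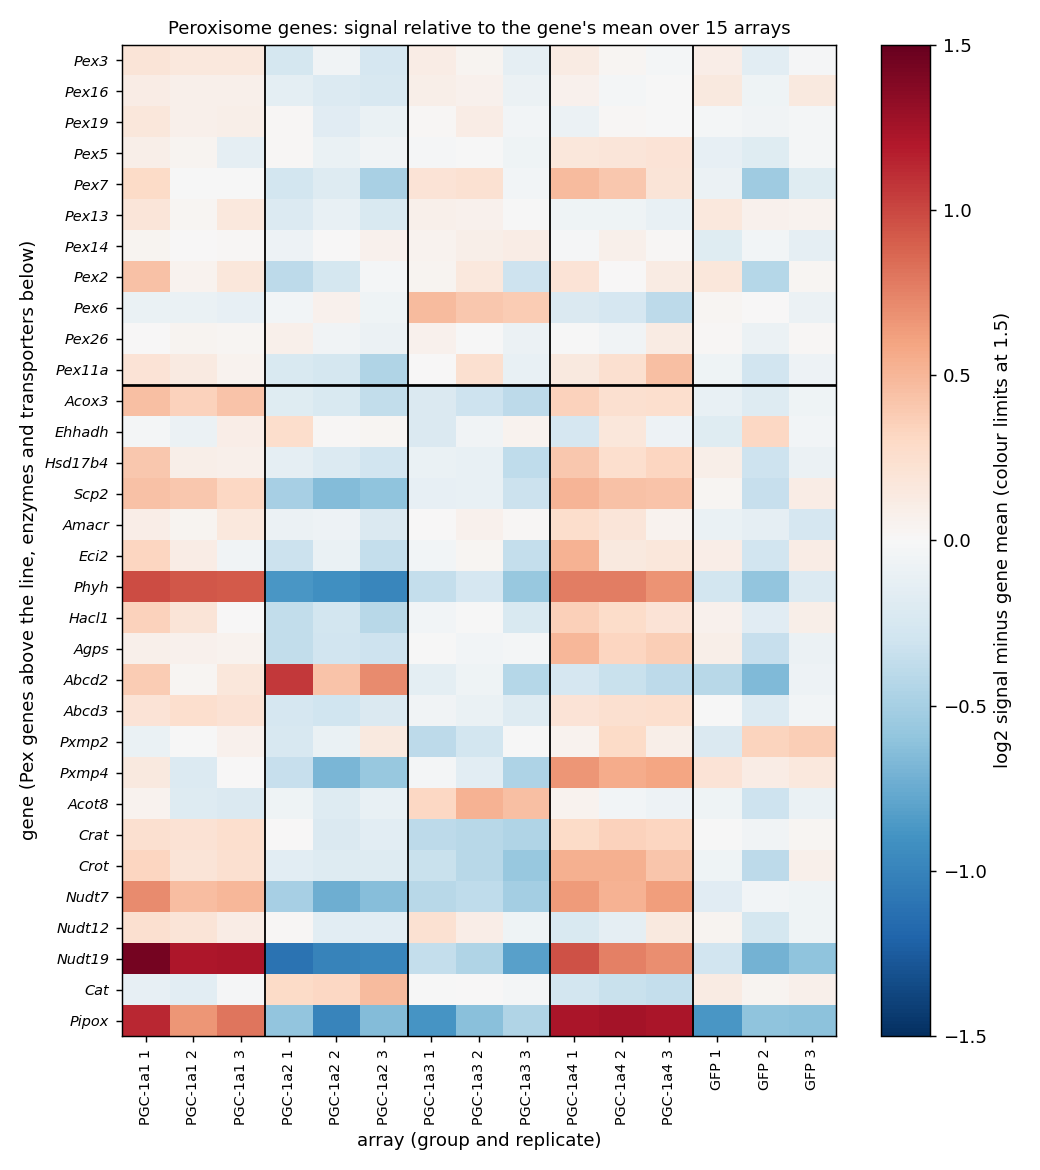
Log2 signal of each of the 32 measured peroxisome genes (rows) on each of the 15 arrays (columns, 3 per group), minus the gene's own mean over the 15 arrays, in red where higher and blue where lower. Nudt19, Phyh and Pipox are red on all PGC-1a1 and PGC-1a4 arrays, Abcd2 and Cat are red on the PGC-1a2 arrays, and Pex6 and Acot8 on the PGC-1a3 arrays.

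Across the 5 groups, 20 of the 32 genes had their lowest mean with PGC-1a2, where 24.7% of all clusters did, and 15 had their highest mean with PGC-1a4, where 23.7% of all clusters did. Another 10 were highest with PGC-1a1, a group that holds the highest mean of 15.8% of all clusters. Pex16, Pex13, Scp2, Phyh, Pxmp4, Nudt7 and Nudt19 are the 7 genes called lower with PGC-1a2, and Scp2, Phyh, Nudt7 and Nudt19 were called higher with both PGC-1a1 and PGC-1a4.

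Among the genes that insert membrane proteins, Pex16 was lower with PGC-1a2 and the other 2 were not called against GFP. Pex19 is the cytosolic chaperone of peroxisomal membrane proteins, Pex3 its docking site on the membrane, and Pex16 helps to place Pex3. Pex16 read 7.07, 7.00 and 6.98 log2 on the PGC-1a2 arrays, against 7.37, 7.15 and 7.36 log2 on the GFP arrays. The groups did not overlap, and the change was -0.28 ± 0.07 log2 (SE, adjusted p = 0.030). The call was lost without GFP replicate 1 or 3 or PGC-1a2 replicate 2 or 3, with changes of -0.27 to -0.24 log2 and adjusted p of 0.097 to 0.11, and after median centring (-0.25 log2, adjusted p = 0.17). Pex3 read 9.01, 8.98 and 8.98 log2 with PGC-1a1 and 8.56, 8.77 and 8.56 log2 with PGC-1a2, and it was 0.36 ± 0.09 log2 higher in PGC-1a1 by direct comparison (adjusted p = 0.012, and 0.052 without PGC-1a2 replicate 3). Pex19 stayed between 9.90 and 10.24 log2 on all 15 arrays.

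Both import receptors were higher with PGC-1a4. Pex5 recognises the carboxy-terminal signal carried by most matrix proteins, and Pex7 the amino-terminal signal of a few, among them the products of Phyh and Agps. Pex5 read 7.66, 7.66 and 7.69 log2 with PGC-1a4, against 7.37, 7.30 and 7.45 log2 with GFP, a change of 0.30 ± 0.07 log2 (adjusted p = 0.010). Pex7 read 6.69, 6.62 and 6.41 log2 with PGC-1a4, against 6.13, 5.68 and 6.04 log2 with GFP, a change of 0.63 ± 0.14 log2 (adjusted p = 0.0081). Neither gene overlapped GFP, and the widest gap in the Pex7 values of GFP is that of replicate 2, without which its change was 0.49 log2 (adjusted p = 0.027). With PGC-1a3, Pex7 read 6.43, 6.44 and 6.18 log2, above all GFP arrays, but its change of 0.40 ± 0.14 log2 was not called (adjusted p = 0.098).

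Of the docking proteins, Pex13 was lower with PGC-1a2, while Pex14 was not called in any of the 10 comparisons. Pex13 read 8.64, 8.73 and 8.62 log2 with PGC-1a2, against 9.01, 8.92 and 8.90 log2 with GFP, with no overlap. The change was -0.28 ± 0.06 log2 (adjusted p = 0.014), and without GFP replicate 1 or PGC-1a2 replicate 3 its adjusted p was 0.052 and 0.061, at -0.24 and -0.26 log2. After median centring Pex13 was not called either (-0.25 log2, adjusted p = 0.091). Pex14 lay between 8.03 and 8.32 log2 on all arrays. Pex2, a ubiquitin ligase that marks the receptor for recycling, had the widest spread of the Pex genes in GFP (7.30, 6.70 and 7.16 log2) and was not called in any comparison.

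Pex6, an ATPase that pulls the receptor back out of the membrane, separated PGC-1a3 from PGC-1a4. It read 8.16, 8.09 and 8.07 log2 with PGC-1a3 and 7.47, 7.44 and 7.30 log2 with PGC-1a4, against 7.72, 7.69 and 7.60 log2 with GFP. All PGC-1a3 arrays lay above every other array of the study, and all PGC-1a4 arrays lay below GFP. The change was 0.44 ± 0.06 log2 with PGC-1a3 (adjusted p = 0.0024) and -0.27 ± 0.06 log2 with PGC-1a4 (adjusted p = 0.014). The PGC-1a4 call was lost after median centring, and without GFP replicate 1 or PGC-1a4 replicate 3, with changes of -0.25 and -0.22 log2 and adjusted p of 0.054 and 0.065. Pex26, which anchors Pex6 to the membrane, stayed between 5.05 and 5.27 log2 on all arrays and was not called in any comparison.

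Pex11a, which elongates the membrane before peroxisomes divide, was higher with PGC-1a4. It read 7.35, 7.44 and 7.65 log2 there, against 7.13, 6.91 and 7.12 log2 with GFP, and the groups did not overlap. The change was 0.42 ± 0.11 log2 (adjusted p = 0.022), and it was 0.35 log2 without GFP replicate 2 (adjusted p = 0.071) and 0.34 log2 without PGC-1a4 replicate 3 (adjusted p = 0.094). With PGC-1a1 the arrays read 7.40, 7.34 and 7.25 log2, also above GFP, with a change of 0.27 ± 0.11 log2 that was not called (adjusted p = 0.19).

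**Figure D2:**
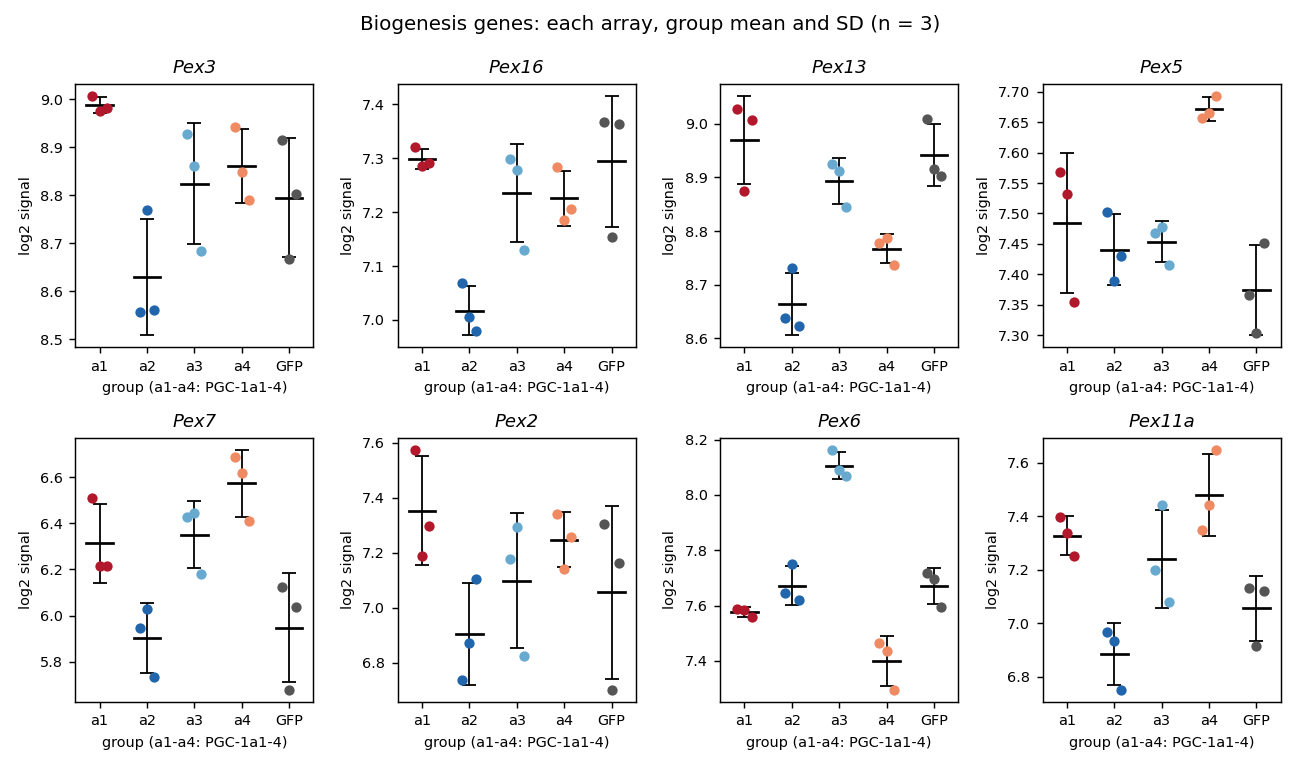
Log2 signal of 8 biogenesis genes on each array (points), with the group mean (bar) and SD (whiskers, n = 3), for PGC-1a1 to PGC-1a4 and GFP from left to right. The scale differs between panels and is cut to each gene's range; the PGC-1a3 points of Pex6 (8.07 to 8.16) lie above all others, and the PGC-1a2 points of Pex13 (8.62 to 8.73) lie below those of GFP.

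The enzyme genes Nudt19, Phyh and Pipox were over 2-fold higher with both PGC-1a1 and PGC-1a4. Catalase, encoded by Cat, went the other way between PGC-1a2 and PGC-1a4. The windows around an annotated start of these 4 genes, 250 bases before to 50 after, are printed because the genes carry large or opposed responses. They come from RefSeq, build GRCm38.p6, on the gene's strand, and the array's probes do not say which start was used. The nuclear receptor half-site AGGTCA was searched on both strands, and it is in capitals where it occurs, as TGACCT where it lies on the other strand. Nudt19 is given at chr7:35555879-35556178 (minus strand), Phyh at chr2:4918746-4919045 (plus), Pipox at chr11:77893823-77894122 (minus) and Cat at chr2:103485104-103485403 (minus).
Nudt19: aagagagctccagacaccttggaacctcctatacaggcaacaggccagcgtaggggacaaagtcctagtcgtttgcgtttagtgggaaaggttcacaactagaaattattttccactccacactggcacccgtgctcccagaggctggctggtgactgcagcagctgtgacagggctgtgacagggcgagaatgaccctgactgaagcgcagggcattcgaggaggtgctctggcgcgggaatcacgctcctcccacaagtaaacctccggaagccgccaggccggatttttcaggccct
Phyh: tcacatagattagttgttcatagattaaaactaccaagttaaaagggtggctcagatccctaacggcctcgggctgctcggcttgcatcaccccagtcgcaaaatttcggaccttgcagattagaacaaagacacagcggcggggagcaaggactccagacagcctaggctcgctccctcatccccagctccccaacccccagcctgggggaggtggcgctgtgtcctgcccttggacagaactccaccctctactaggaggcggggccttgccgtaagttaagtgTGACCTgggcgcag
Pipox: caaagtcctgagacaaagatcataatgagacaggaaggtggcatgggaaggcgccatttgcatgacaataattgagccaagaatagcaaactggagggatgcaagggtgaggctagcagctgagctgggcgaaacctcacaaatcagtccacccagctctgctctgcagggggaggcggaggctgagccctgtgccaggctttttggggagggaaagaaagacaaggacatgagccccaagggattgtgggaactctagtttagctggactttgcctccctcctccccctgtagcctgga
Cat: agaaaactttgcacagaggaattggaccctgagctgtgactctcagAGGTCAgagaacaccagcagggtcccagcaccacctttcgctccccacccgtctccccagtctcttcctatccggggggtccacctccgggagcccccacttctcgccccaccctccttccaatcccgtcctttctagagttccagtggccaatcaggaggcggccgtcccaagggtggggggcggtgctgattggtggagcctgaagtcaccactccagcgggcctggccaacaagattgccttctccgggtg
The half-site stands 36 bases after the start in Phyh and 204 bases before it in Cat, and the windows of Nudt19 and Pipox do not hold these letters. Of the 32 genes 24 had a window in the table, and 3 of these (12.5%: Phyh, Cat and Scp2) held the half-site, against 18.1% of 27025 genes. The longer form TNAAGGTCA, the extended half-site of the estrogen-related receptors, was in 0 of the 24 and in 1.43% of all genes, and the direct repeat named DR1 was in 0 of the 24 and in 0.0481% of all genes. These letters overlap, since the longer forms contain the half-site. The counts describe letters in short windows and say nothing of where a receptor binds.

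Nudt19, a nudix hydrolase that cleaves coenzyme A and its esters, had the largest measured change of the set with PGC-1a1. It read 9.06, 8.84 and 8.85 log2 with PGC-1a1 and 8.59, 8.39 and 8.33 log2 with PGC-1a4, against 7.34, 6.92 and 7.03 log2 with GFP. PGC-1a2 arrays read 6.52, 6.63 and 6.65 log2 and PGC-1a3 arrays 7.27, 7.18 and 6.81 log2. The PGC-1a1 and PGC-1a4 arrays lay far above all others, the PGC-1a2 arrays lay below all GFP arrays, and the PGC-1a3 arrays overlapped GFP. The signal was 3.54-fold that of GFP with PGC-1a1 (1.82 ± 0.13 log2, adjusted p = 1.0e-05) and 2.53-fold with PGC-1a4 (1.34 ± 0.13 log2, adjusted p = 3.9e-05). With PGC-1a2 the change was -0.49 ± 0.13 log2 (adjusted p = 0.038), a call that was kept without GFP replicate 2 and lost without any of the other 5 arrays, at -0.53 to -0.37 log2 (adjusted p = 0.075 to 0.12), and after median centring (-0.47 log2, adjusted p = 0.11).

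Nudt7, another peroxisomal coenzyme A hydrolase, was the gene called in all 4 comparisons with GFP. It read 7.58, 7.34 and 7.37 log2 with PGC-1a1, 6.38, 6.15 and 6.23 with PGC-1a2, 6.47, 6.49 and 6.37 with PGC-1a3 and 7.51, 7.39 and 7.51 with PGC-1a4, against 6.70, 6.83 and 6.82 log2 with GFP. No isoform overlapped GFP: PGC-1a1 and PGC-1a4 lay above it, PGC-1a2 and PGC-1a3 below it. The changes were 0.65, -0.53, -0.34 and 0.69 log2 with PGC-1a1, PGC-1a2, PGC-1a3 and PGC-1a4, each with an SE of 0.08. The PGC-1a3 change was the least stable (adjusted p = 0.027), with an adjusted p of 0.062 to 0.085 when any array but GFP replicate 1 was left out and changes of -0.37 to -0.30 log2, and 0.098 after median centring (-0.31 log2). Nudt12, a peroxisomal NADH pyrophosphatase, lay between 6.37 and 6.88 log2 and was not called in any comparison.

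Alpha-oxidation removes the first carbon of branched fatty acids that beta-oxidation cannot start on, and Phyh encodes its first enzyme, phytanoyl-CoA hydroxylase. Phyh read 9.08, 9.03 and 9.02 log2 with PGC-1a1 and 8.87, 8.87 and 8.77 log2 with PGC-1a4, against 7.83, 7.50 and 7.89 log2 with GFP. It read 7.22, 7.18 and 7.12 log2 with PGC-1a2 and 7.74, 7.85 and 7.53 log2 with PGC-1a3. The first pair of groups lay above GFP on every array, PGC-1a2 lay below GFP on every array, and PGC-1a3 overlapped it. The signal was 2.46-fold that of GFP with PGC-1a1 (1.30 ± 0.10 log2, adjusted p = 1.5e-05) and 2.14-fold with PGC-1a4 (1.10 ± 0.10 log2, adjusted p = 2.2e-05), and it fell by 0.56 ± 0.10 log2 with PGC-1a2 (adjusted p = 0.0048). Hacl1, which cleaves the hydroxylated product, had changes of 0.19, -0.35, -0.09 and 0.29 log2 in the order of the isoforms, none called. Its PGC-1a2 arrays (5.59, 5.68 and 5.54 log2) lay below all GFP arrays (6.02, 5.79 and 6.05 log2), at an adjusted p of 0.051.

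Pipox oxidises pipecolic acid and sarcosine and releases hydrogen peroxide, and Cat breaks that peroxide down. Pipox read 5.71, 5.24 and 5.37 log2 with PGC-1a1 and 5.80, 5.83 and 5.80 log2 with PGC-1a4, against 3.70, 3.97 and 3.95 log2 with GFP. The GFP values, and 2 of the 3 PGC-1a2 and 1 of the 3 PGC-1a3 values, lay below the lower quartile of their arrays, so the change is given as a bound over that quartile of the GFP arrays (mean 3.98 log2). Pipox was at least 2.76-fold higher with PGC-1a1 (measured difference 1.57 ± 0.15 log2, adjusted p = 5.0e-05) and at least 3.57-fold higher with PGC-1a4 (measured 1.94 ± 0.15 log2, adjusted p = 5.2e-06), and neither isoform overlapped GFP. Cat read 11.01, 11.03 and 11.19 log2 with PGC-1a2 and 10.45, 10.39 and 10.37 log2 with PGC-1a4, against 10.84, 10.77 and 10.80 log2 with GFP. The PGC-1a2 arrays were the highest and the PGC-1a4 arrays the lowest of all 15. Cat was 0.27 ± 0.06 log2 higher with PGC-1a2 (adjusted p = 0.018) and 0.40 ± 0.06 log2 below GFP with PGC-1a4 (-0.40, adjusted p = 0.0011). Without GFP replicate 3 or PGC-1a2 replicate 3 the rise was 0.27 and 0.21 log2 (adjusted p = 0.059 and 0.081).

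Of the beta-oxidation genes, Acox3 and Scp2 were higher with both PGC-1a1 and PGC-1a4. Acox3 encodes the oxidase that starts the shortening of branched acyl-CoAs, and Scp2 encodes a thiolase that ends it and a lipid carrier. Acox3 read 7.96, 7.85 and 7.94 log2 with PGC-1a1 and 7.86, 7.74 and 7.76 log2 with PGC-1a4, against 7.40, 7.32 and 7.44 log2 with GFP. Its changes were 0.53 ± 0.07 log2 with PGC-1a1 (adjusted p = 0.00066) and 0.40 ± 0.07 log2 with PGC-1a4 (adjusted p = 0.0023), with no overlap. Scp2 read 6.02, 5.98 and 5.90 log2 with PGC-1a1, 5.09, 4.94 and 4.98 with PGC-1a2, 5.46, 5.47 and 5.26 with PGC-1a3 and 6.09, 6.02 and 6.01 with PGC-1a4, against 5.61, 5.23 and 5.69 log2 with GFP. PGC-1a1 and PGC-1a4 lay above GFP and PGC-1a2 below it, with changes of 0.46, 0.53 and -0.51 log2 and an SE of 0.11 each (adjusted p = 0.024, 0.0056 and 0.011). The PGC-1a1 call was lost without any 1 of its own 3 arrays (0.43 to 0.49 log2, adjusted p = 0.051 to 0.085), and the PGC-1a2 call without GFP replicate 3 or PGC-1a2 replicate 2 (-0.42 and -0.48 log2, adjusted p = 0.051 and 0.052) or after median centring (-0.48 log2, adjusted p = 0.052).

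Hsd17b4 and Ehhadh encode the bifunctional enzymes of the middle steps. Hsd17b4 read 8.37, 8.21 and 8.28 log2 with PGC-1a4, against 8.06, 7.65 and 7.87 log2 with GFP, and its change of 0.43 ± 0.12 log2 (adjusted p = 0.032) was lost after median centring and when any array but GFP replicate 1 was left out (0.32 to 0.47 log2, adjusted p = 0.054 to 0.11). Ehhadh lay between 3.84 and 4.41 log2 on all 15 arrays, at or near the arrays' lower quartiles, and was not called in any comparison. Amacr, which turns branched acyl-CoAs into the form that the oxidases accept, was 0.26 ± 0.07 log2 higher with PGC-1a1 (adjusted p = 0.043) and 0.33 ± 0.07 log2 higher with PGC-1a4 (adjusted p = 0.0074). Its PGC-1a1 call was lost when any 1 of the 6 arrays was left out (0.22 to 0.30 log2, adjusted p = 0.056 to 0.16), and after quantile normalization. Eci2, an isomerase for unsaturated acyl-CoAs, was not called against GFP.

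Agps, whose product makes the ether bond of plasmalogens, was higher with PGC-1a4. It read 8.35, 8.17 and 8.22 log2 there, against 7.94, 7.50 and 7.76 log2 with GFP, a change of 0.52 ± 0.09 log2 (adjusted p = 0.0023) with no overlap. With PGC-1a1 it read 7.93, 7.91 and 7.91 log2, within the GFP range, and the change of 0.18 ± 0.09 log2 was not called.

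Abcd2 was the enzyme or transporter gene with the largest rise under PGC-1a2, and Abcd3, of the same family, is set beside it. Both encode half-transporters that carry acyl-CoAs into the peroxisome. Abcd2 read 5.81, 5.18 and 5.46 log2 with PGC-1a2, against 4.33, 4.10 and 4.68 log2 with GFP, 2.16-fold (1.11 ± 0.18 log2, adjusted p = 0.0022) and with no overlap. The GFP values of Abcd2 were low, though above the lower quartile of each array (4.05 log2 on GFP replicate 2). Its PGC-1a1 arrays (5.14, 4.78 and 4.93 log2) also lay above GFP, with a change of 0.58 ± 0.18 log2 that was not called (adjusted p = 0.075). Abcd3 was 0.31 ± 0.06 log2 higher with both PGC-1a1 (adjusted p = 0.013) and PGC-1a4 (adjusted p = 0.0060), at 8.80 to 8.85 log2 on those arrays against 8.38 to 8.59 log2 on the GFP arrays. Without PGC-1a1 replicate 2 the PGC-1a1 change was 0.29 log2 (adjusted p = 0.059).

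Pxmp4, a peroxisomal membrane protein, was the gene with the largest fall under PGC-1a2. It read 6.94, 6.59 and 6.71 log2 with PGC-1a2 and 7.94, 7.83 and 7.87 log2 with PGC-1a4, against 7.48, 7.38 and 7.44 log2 with GFP. The groups did not overlap: PGC-1a2 lay below GFP (-0.69 ± 0.12 log2, adjusted p = 0.0044) and PGC-1a4 above it (0.45 ± 0.12 log2, adjusted p = 0.028). The PGC-1a4 call was lost when any 1 of the 6 arrays was left out, with changes of 0.42 to 0.47 log2 and adjusted p of 0.056 to 0.089. With PGC-1a1 it read 7.43, 7.07 and 7.28 log2, which overlapped GFP. Pxmp2, a channel for small solutes, was not called in any comparison.

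The genes for the export of shortened acyl groups split PGC-1a3 from PGC-1a1 and PGC-1a4. Crat and Crot encode the acetyl and octanoyl carnitine transferases, and the product of Crat also works in mitochondria. Crat read 10.71, 10.70 and 10.73 log2 with PGC-1a1, 10.08, 10.06 and 10.03 with PGC-1a3 and 10.76, 10.82 and 10.80 with PGC-1a4, against 10.47, 10.43 and 10.51 log2 with GFP. No arrays of these groups overlapped GFP, and the changes were 0.24, -0.41 and 0.32 log2 with an SE of 0.06 (adjusted p = 0.035, 0.0026 and 0.0038). The PGC-1a1 call was lost when any 1 of the 6 arrays was left out (0.22 to 0.26 log2, adjusted p = 0.066 to 0.11). Crot read 7.70, 7.70 and 7.59 log2 with PGC-1a4 and 6.84, 6.76 and 6.61 log2 with PGC-1a3, against 7.11, 6.78 and 7.25 log2 with GFP. It was called with PGC-1a4 (0.62 ± 0.11 log2, adjusted p = 0.0018) and not with PGC-1a3, whose arrays overlapped GFP replicate 2 (-0.31 ± 0.11 log2, adjusted p = 0.098). Acot8, a thioesterase that frees acyl groups from coenzyme A, was instead highest with PGC-1a3. It read 7.68, 7.89 and 7.83 log2 there, against 7.31, 7.07 and 7.27 log2 with GFP, and its change of 0.58 ± 0.09 log2 was called (adjusted p = 0.0032) with no overlap.

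**Figure D3:**
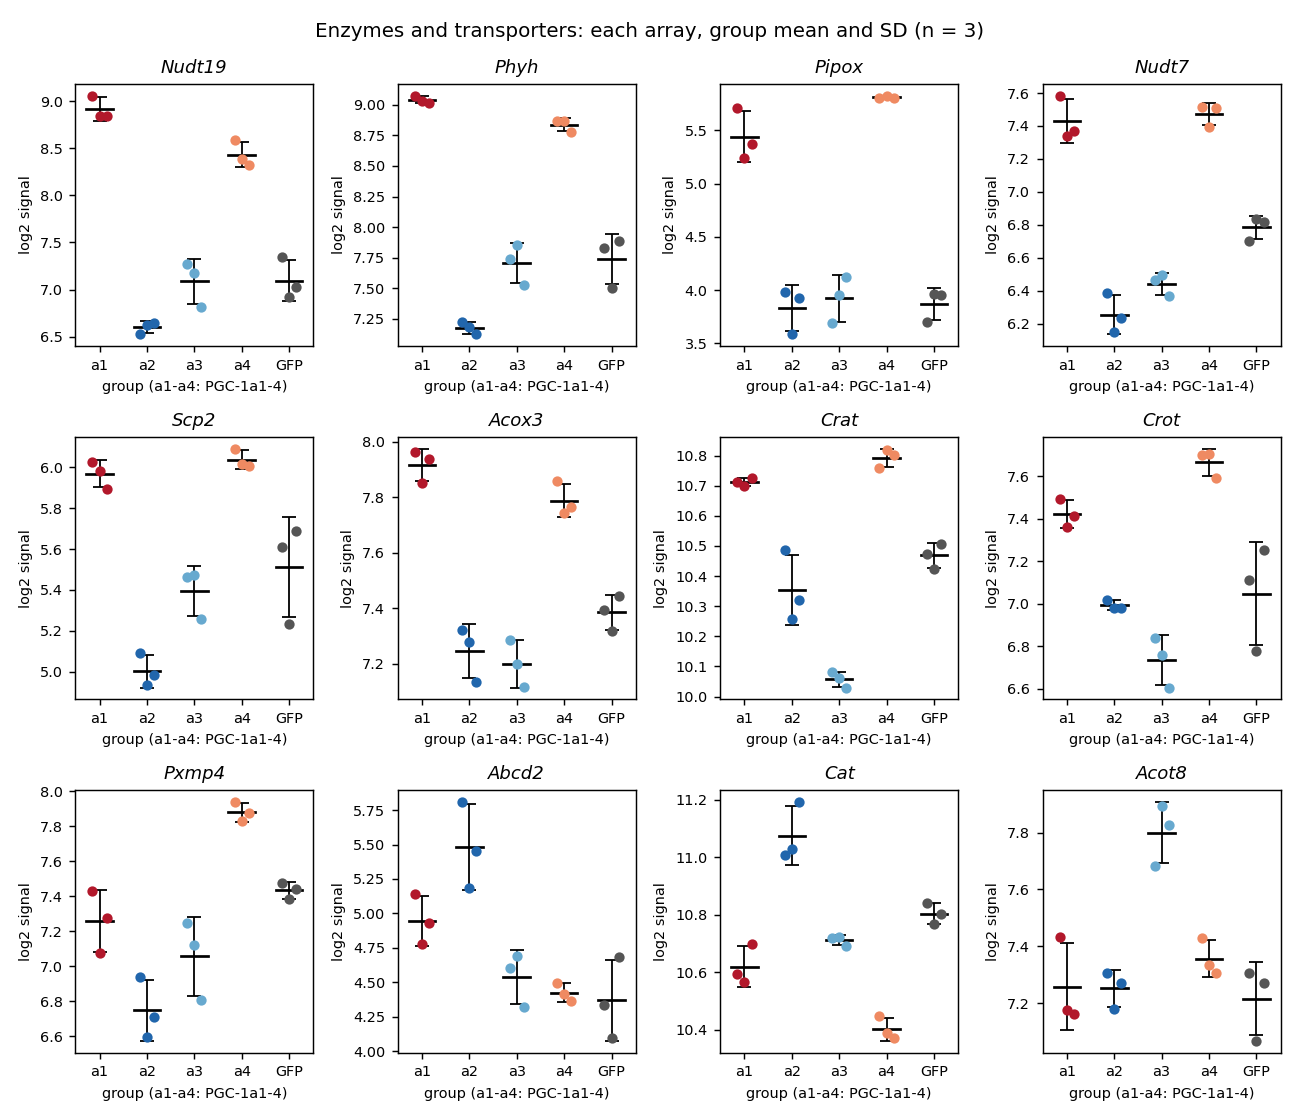
Log2 signal of 12 enzyme and transporter genes on each array (points), with the group mean (bar) and SD (whiskers, n = 3), for PGC-1a1 to PGC-1a4 and GFP from left to right. The scale differs between panels and is cut to each gene's range; Nudt19 lies at 8.33 to 9.06 with PGC-1a1 and PGC-1a4 and at 6.92 to 7.34 with GFP, and Abcd2, Cat and Acot8 peak in other groups.

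Biogenesis and enzyme genes were counted apart. With PGC-1a1, 0 of 11 biogenesis genes and 9 of 21 enzyme genes were called, where 6.84% of all clusters were, and the class medians were 0.14 and 0.28 log2. With PGC-1a4, 3 biogenesis genes were called higher and 1 lower, and 13 enzyme genes higher and 1 lower, where 14.3% of all clusters were called, with medians of 0.07 and 0.33 log2. With PGC-1a2, 0 biogenesis genes were called higher and 2 lower, and 2 enzyme genes higher and 5 lower, where 9.33% of all clusters were called, with medians of -0.05 and -0.14 log2. With PGC-1a3, 1 biogenesis gene was called higher and 0 lower, and 1 enzyme gene higher and 2 lower, where 7.99% of all clusters were called, with medians of 0.07 and -0.09 log2. Among 11 genes, counts of 0 to 2 cannot be told from these shares. The class medians include GFP replicate 2. Without GFP replicate 2, the enzyme counts were 7 higher and 0 lower with PGC-1a1, 2 and 8 with PGC-1a2, 1 and 2 with PGC-1a3, and 11 and 1 with PGC-1a4. The biogenesis counts were then 0 and 0, 0 and 2, 2 and 0, and 2 and 1 in the same order. Among biogenesis genes the changes against GFP ran from -0.28 log2 (Pex16 with PGC-1a2) to 0.63 log2 (Pex7 with PGC-1a4), and among enzyme genes from -0.69 log2 (Pxmp4 with PGC-1a2) to 1.82 log2 (Nudt19 with PGC-1a1), leaving out Pipox, whose GFP values lay below the lower quartile. The difference between the classes was not tested.

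**Figure D4:**
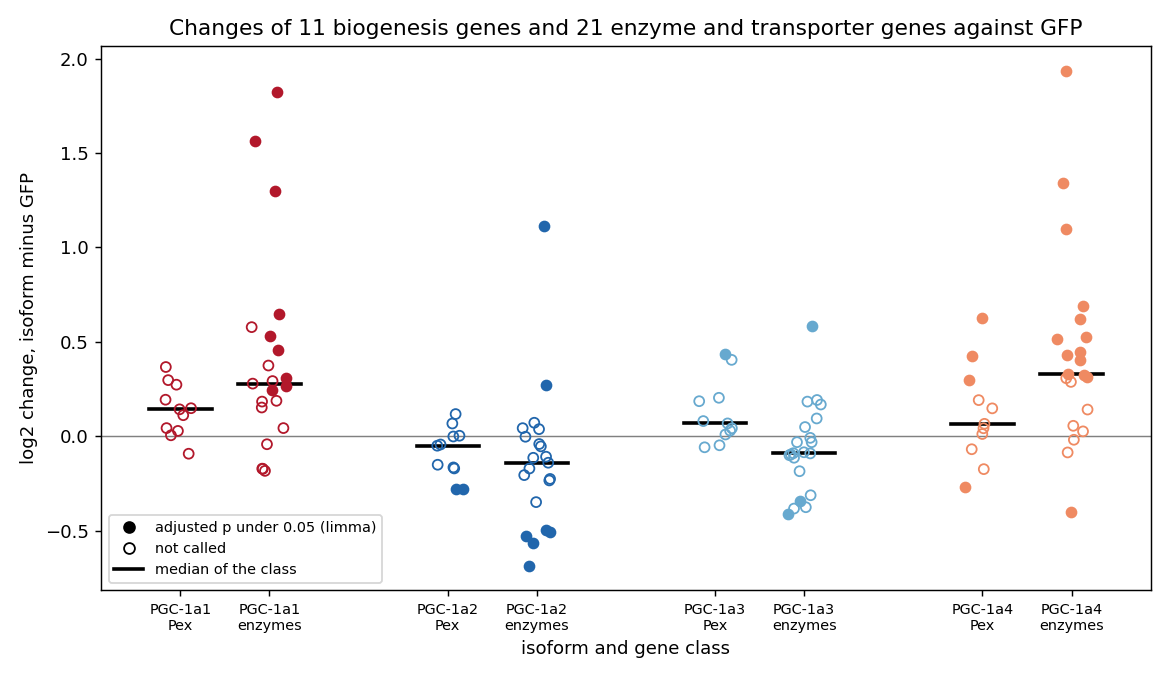
Log2 change against GFP (vertical axis) of the 11 biogenesis genes and the 21 enzyme and transporter genes for each isoform, 1 point per gene, filled where called (limma adjusted p under 0.05); black bars are class medians. Filled points above 1 log2 are Nudt19, Pipox and Phyh with PGC-1a1 and PGC-1a4 and Abcd2 with PGC-1a2.

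Direct comparisons of the isoforms leave the GFP arrays out of the difference. Between PGC-1a1 and PGC-1a2, 18 genes were higher and 1 lower in PGC-1a1, where 10.2% of all clusters were called higher and 9% lower (after median centring 2375 clusters higher and 1306 lower, against 2388 and 2100 as deposited). Nudt19 differed by 2.32 ± 0.13 log2, 4.98-fold (adjusted p = 5.6e-07), Phyh by 1.86 ± 0.10 log2 and Pipox by 1.61 ± 0.15 log2. The Pipox difference is not exact, since 2 of the 3 PGC-1a2 values lay below the lower quartile of their arrays. The biogenesis genes Pex3, Pex16, Pex13 and Pex11a were higher in PGC-1a1, by 0.28 to 0.44 log2, and Cat was the 1 gene called lower (-0.46 ± 0.06 log2). Of these calls, those of Pex3, Pex16, Pex11a, Hsd17b4, Amacr and Pxmp4 were lost when 1 array was left out: Pex16 without PGC-1a2 replicate 2 or 3, Pex3 and Pex11a without PGC-1a2 replicate 3, Pxmp4 without PGC-1a2 replicate 2, Hsd17b4 without PGC-1a1 replicate 1 or any PGC-1a2 array, and Amacr without any 1 of the 6, with adjusted p of 0.050 to 0.17. The Hsd17b4 call was also lost after median centring and the Amacr call after quantile normalization.

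Between PGC-1a2 and PGC-1a4, 3 genes were higher and 18 lower in PGC-1a2, where 12.6% of all clusters were called higher and 12.6% lower. Pipox differed by -1.98 ± 0.15 log2, Nudt19 by -1.83 ± 0.13 log2, Phyh by -1.66 ± 0.10 log2 and Nudt7 by -1.22 ± 0.08 log2 (adjusted p at most 1.2e-06). The difference was called and over 2-fold at 7 genes, Pipox among them. The share of all clusters over 2-fold was not counted, so this count has no background beside it. The Pipox difference is not exact, since 2 of its 3 PGC-1a2 values lay below the lower quartile of their arrays. The 3 higher genes were Abcd2 (1.06 ± 0.18 log2), Cat (0.67 ± 0.06 log2) and Pex6 (0.27 ± 0.06 log2). The call of Pex5 was lost without replicate 2 or 3 of either group, and that of Eci2 without PGC-1a2 replicate 1 or 3 or PGC-1a4 replicate 1, at adjusted p of 0.057 to 0.094. Median centring also ended the Pex5 call. This comparison and the one before share the PGC-1a2 arrays.

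**Figure D5:**
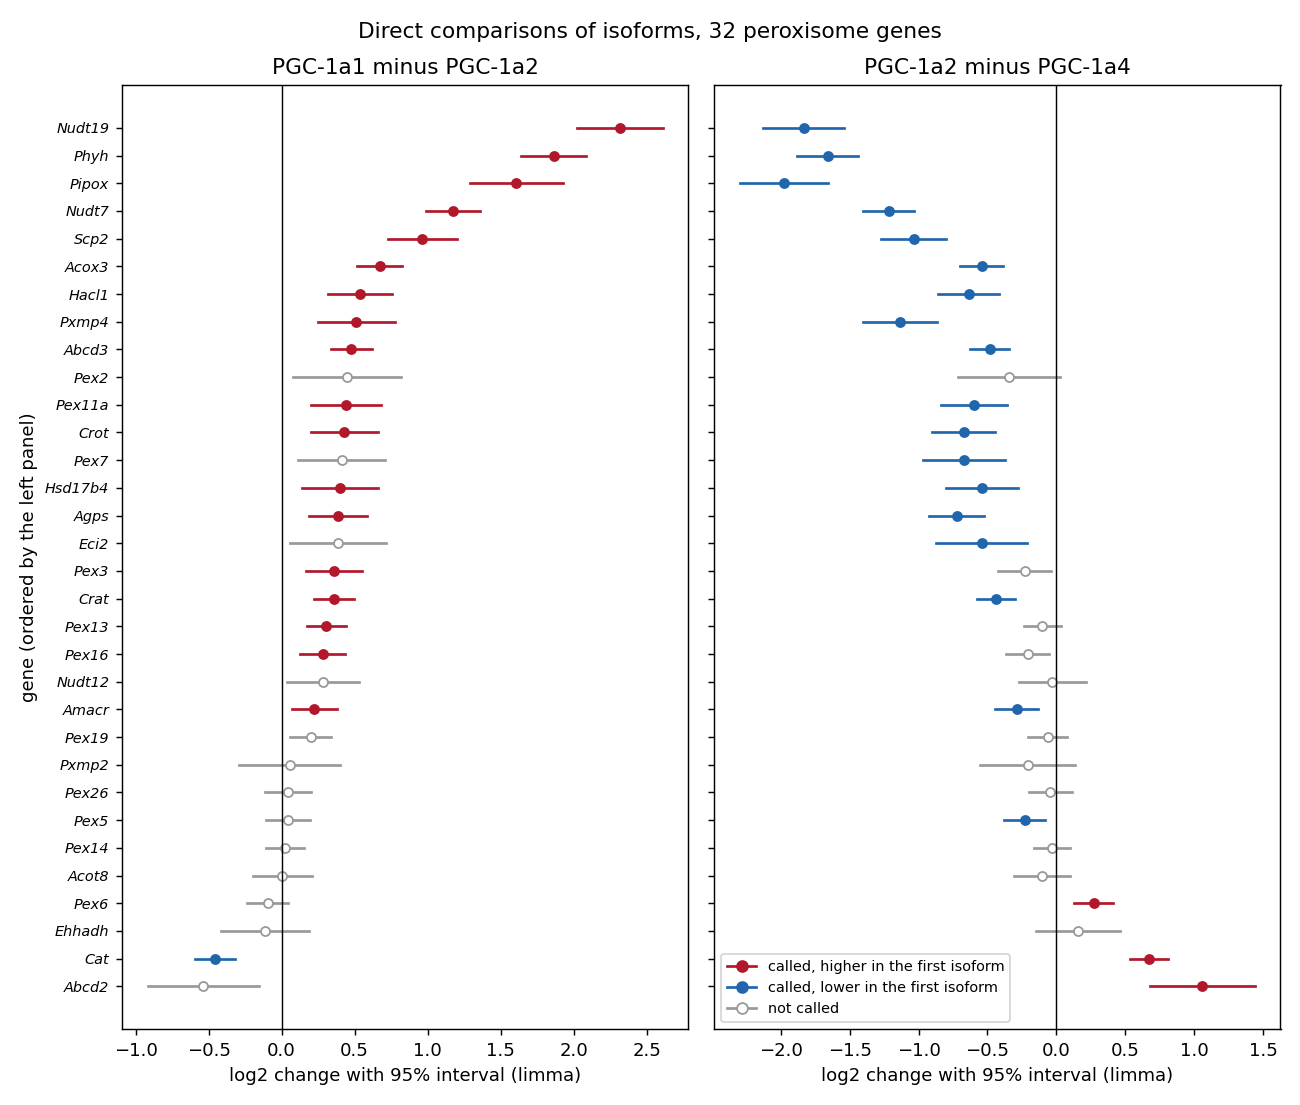
Log2 change with its 95% interval (limma) for the 32 genes, PGC-1a1 minus PGC-1a2 on the left and PGC-1a2 minus PGC-1a4 on the right, with genes in the order of the left panel; red and blue filled points were called higher and lower in the isoform named first, and grey open points were not called. Nudt19 lies at 2.32 on the left and -1.83 on the right; Cat and Abcd2 lie on the other side of 0 from most genes in both panels, and Abcd2 was not called on the left.

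Between PGC-1a3 and PGC-1a4, 3 genes were higher and 14 lower in PGC-1a3, where 13.2% of all clusters were called higher and 9.79% lower. Pex6 (0.71 ± 0.06 log2), Acot8 (0.44 ± 0.09 log2) and Cat (0.31 ± 0.06 log2) were the higher genes, and Pipox (-1.89 ± 0.15 log2) and Nudt19 (-1.35 ± 0.13 log2) the lowest. Crot (-0.93 ± 0.11 log2), Pxmp4 (-0.82 ± 0.12 log2) and Crat (-0.74 ± 0.06 log2) were lower too. The Pipox difference is limited by 1 PGC-1a3 value below the lower quartile of its array. The call of Pex5 was lost without any 1 of the 6 arrays, and that of Hacl1 without PGC-1a3 replicate 3 or PGC-1a4 replicate 1, at adjusted p of 0.064 to 0.099, and the Pex5 call was lost after median centring too.

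Between PGC-1a1 and PGC-1a3, 9 genes were higher and 2 lower in PGC-1a1, where 6.48% of all clusters were called higher and 7.56% lower (after median centring 1389 clusters higher and 833 lower, against 1513 and 1764). The higher genes were Nudt19, Pipox, Phyh, Nudt7, Acox3, Crot, Crat, Scp2 and Abcd3, by 0.34 to 1.83 log2, and the lower ones Acot8 (-0.54 ± 0.09 log2) and Pex6 (-0.53 ± 0.06 log2). For Pipox, 1 of the 3 PGC-1a3 values lay below the lower quartile of its array. Each of the 11 calls held when any 1 of the 6 arrays of the 2 groups was left out. Between PGC-1a2 and PGC-1a3, 3 genes were higher and 6 lower in PGC-1a2, where 3.76% of all clusters were called higher and 5.52% lower. Abcd2 (0.95 ± 0.18 log2), Cat (0.36 ± 0.06 log2) and Crat (0.30 ± 0.06 log2) were higher, and Acot8 (-0.55 ± 0.09 log2), Phyh (-0.53 ± 0.10 log2), Nudt19, Pex6, Scp2 and Pex13 lower. The calls of Pex13, Scp2 and Nudt19 were lost without any PGC-1a2 array and without PGC-1a3 replicate 1 or 2 (adjusted p = 0.052 to 0.16). After median centring these 3 and the Crat call were lost (Crat 0.29 log2, adjusted p = 0.051), and after quantile normalization those of Pex13 and Scp2.

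Between PGC-1a1 and PGC-1a4, 1 gene was called higher and 2 lower in PGC-1a1, where 5.29% of all clusters were called higher and 3.79% lower, so these genes were called about as often as all clusters. Pxmp4 was lower with PGC-1a1 (-0.62 ± 0.12 log2, adjusted p = 0.0073), as was Agps (-0.33 ± 0.09 log2, adjusted p = 0.040), and Nudt19 was higher (0.48 ± 0.13 log2, adjusted p = 0.042). Only the Pxmp4 call held without each single array of the 2 groups and after median centring, which left 0 genes higher and 1 lower. Agps was not called without any 1 of the 6 arrays (adjusted p = 0.058 to 0.14), nor Nudt19 without any array but PGC-1a4 replicate 1 (adjusted p = 0.080 to 0.16). A gene that was not called is not shown to respond alike: the 95% interval of the difference was -0.02 to 0.43 log2 for Phyh, -0.69 to -0.05 log2 for Pipox and -0.23 to 0.14 log2 for Nudt7.

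Other peroxisomal genes, a list of 52 of which 36 were measured, were read for comparison. With PGC-1a1, 8 were called higher and 0 lower, where 6.84% of all clusters were called, and with PGC-1a4, 8 higher and 1 lower, where 14.3% were. With PGC-1a2, 0 were called higher and 6 lower, where 9.33% were, and with PGC-1a3, 1 higher and 2 lower (8.33% of the 36), near the 7.99% of all clusters. Without GFP replicate 2 the counts were 6 higher and 1 lower with PGC-1a1, 0 and 8 with PGC-1a2, 1 and 3 with PGC-1a3, and 7 and 2 with PGC-1a4. The list medians were -0.00, -0.10, -0.07 and 0.05 log2 in the order of the isoforms, and 8 of the 36 lay below the lower quartile on all 15 arrays, while 0 of the 32 main genes did. Hsdl2, a dehydrogenase-like peroxisomal protein, read 9.66, 9.60 and 9.76 log2 with PGC-1a1 and 9.70, 9.65 and 9.53 log2 with PGC-1a4, against 8.80, 8.71 and 8.81 log2 with GFP. Its changes were 0.90 and 0.86 log2 with an SE of 0.06, and with PGC-1a2 it fell by 0.24 log2. Lonp2, the protease of the matrix, changed by 0.40, -0.38, -0.29 and 0.48 log2 in the order of the isoforms, all called, and Idh1, which supplies NADPH in the cytosol and in peroxisomes, by 0.54, -0.53 and 0.68 log2 with PGC-1a1, PGC-1a2 and PGC-1a4. Ddo, the oxidase of acidic D-amino acids, was 0.60 and 0.86 log2 higher with PGC-1a1 and PGC-1a4, and Pecr, a reductase of unsaturated acyl-CoAs, was 0.63 ± 0.13 log2 higher with PGC-1a4 and 0.53 ± 0.13 log2 below GFP with PGC-1a2 (-0.53). Acox2, a branched-chain oxidase like Acox3, was lower with PGC-1a3 (-0.55 ± 0.11 log2) and PGC-1a4 (-0.60 ± 0.11 log2). Dnm1l, a GTPase that divides peroxisomes and mitochondria, was 0.27 ± 0.06 log2 higher with PGC-1a1, and Mff, its membrane adaptor, was called with PGC-1a1, PGC-1a2 and PGC-1a4 (0.25, -0.27 and 0.27 log2). Tmem135 was higher with PGC-1a1 and PGC-1a4 (0.51 and 0.34 log2), and Abcd4 was lower with PGC-1a2 (-0.28 log2) and higher with PGC-1a3 (0.26 log2). Calls lost when 1 array was left out were those of Idh1 with PGC-1a1 (without GFP replicate 1 or PGC-1a1 replicate 2 or 3, 0.48 to 0.51 log2), Idh1 with PGC-1a2 (without GFP replicate 3 or PGC-1a2 replicate 2 or 3, -0.49 to -0.48 log2), Pecr with PGC-1a2 (without GFP replicate 1 or 3 or PGC-1a2 replicate 1 or 3, -0.53 to -0.43 log2) Lonp2 with PGC-1a3 (without GFP replicate 1 or 3 or PGC-1a3 replicate 2 or 3, -0.28 to -0.25 log2), Hsdl2 with PGC-1a2 (without any array but GFP replicate 2), Dnm1l with PGC-1a1 (without GFP replicate 3 or PGC-1a1 replicate 2 or 3), Mff with PGC-1a1 (without GFP replicate 2 or 3 or PGC-1a1 replicate 1 or 3), Mff with PGC-1a2 (without PGC-1a2 replicate 3), Tmem135 with PGC-1a4 (without PGC-1a4 replicate 1) and Abcd4 with PGC-1a3 (without PGC-1a3 replicate 1 or 2). After median centring the PGC-1a2 calls of Abcd4, Mff, Pecr and Hsdl2 and the PGC-1a3 call of Lonp2 were lost.

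A list of 10 coactivators, corepressors and receptors was read as well, Ppargc1a among them. Whether they act on the peroxisomal genes here was not tested. Esrra, the estrogen-related receptor alpha, read 7.93, 7.94 and 8.11 log2 with PGC-1a1, 6.65, 6.48 and 6.48 with PGC-1a2, 6.57, 6.82 and 6.75 with PGC-1a3 and 8.09, 8.13 and 8.16 with PGC-1a4, against 7.02, 7.03 and 7.01 log2 with GFP. No isoform overlapped GFP, and all 4 changes were called (0.97, -0.49, -0.31 and 1.11 log2, SE 0.08). Esrrg, a related receptor, was lower with PGC-1a2 (-0.92 ± 0.13 log2), and Esrrb higher with PGC-1a4 (0.77 ± 0.11 log2). Pparg was lower with PGC-1a1, PGC-1a3 and PGC-1a4 (-0.28, -0.34 and -0.64 log2), Ppard with PGC-1a4 (-0.30 log2) and Ppargc1b with PGC-1a1 (-0.26 log2), and the corepressor Nrip1 was higher with PGC-1a2 (0.40 log2). Ppara, the receptor that drives peroxisome proliferation in rodent liver, and its partner Rxra were not called in any comparison with GFP. The calls of Esrra and Pparg with PGC-1a3, of Pparg and Ppargc1b with PGC-1a1 and of Ppard with PGC-1a4 were lost when single arrays were left out, at adjusted p of 0.050 to 0.16, and after median centring. For Esrra these were any array but PGC-1a3 replicate 2 (-0.33 to -0.24 log2), and for Pparg any array but PGC-1a1 replicate 1 in that comparison (-0.30 to -0.24 log2) and GFP replicate 1 or PGC-1a3 replicate 1 or 2 in the other (-0.34 to -0.28 log2). For Ppargc1b they were GFP replicate 1 and PGC-1a1 replicates 1 and 3 (-0.25 to -0.23 log2), and for Ppard GFP replicates 1 and 3 and PGC-1a4 replicates 1 and 2 (-0.29 to -0.27 log2).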

How the data were processed

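Total RNA of 15 myotube samples was measured on Affymetrix mouse exon arrays. The deposited values are log2 signals per transcript cluster (23332 clusters). Per the submitters' processing notes Partek was used. For its version, the normalization and the build, nothing is stated in those notes. The values were used as deposited. Genes were named by the platform annotation, where 14996 clusters had 1 symbol, 1019 several and 7317 none. The number of arrays limits the precision.

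Arrays were grouped by title, although the PGC-1a4 source name says isoform 1. A group-means model of all 15 arrays was fitted by lmFit and eBayes of limma 3.58.1 (R 4.3.3; 10 residual and 2.09 prior degrees of freedom), with 4 contrasts against GFP, 6 isoform pairs and an F-test. Changes are the first group minus the second in log2 with moderated SE (n = 3 per group), two-sided p-values were Benjamini-Hochberg adjusted within a contrast across the 23332 clusters, and calls are at an adjusted p under 0.05. With 3 arrays against 3, the smallest p of an exact permutation test is 0.1. The script was tested on simulated data. The 36 genes and the comparison lists were chosen with earlier results of these data known. Genes named are all 36 and the 10 coactivators, corepressors and receptors. In the list of other peroxisomal genes, they are the up to 6 called genes with the smallest p in each comparison with GFP. No 2 arrays were identical. Alternatives covered scaling, filters, array weights, the fit's groups and leaving out each array (for a contrast, each array of its 2 groups). The planned search for peroxisomal targeting signals in the proteins was not run. Promoter windows came from RefSeq (GRCm38.p6).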

Additional observations from a re-analysis of the deposited data

Results flagged for a closer look

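At 8 genes a pair of isoforms moved to opposite sides of GFP, both called, and the direct comparison was called too. How many of all clusters meet the same rule was not counted, so these genes are not shown to be unusual in it. Since both changes against GFP had to be called with opposite signs, a called direct difference follows almost from that choice and adds little support. Its limma adjusted p was at most 5.7e-05 for all 15 pairs. Several of the calls against GFP were lost when single arrays were left out. These were Nudt19, Scp2 and Cat with PGC-1a2, Scp2 and Crat with PGC-1a1, Nudt7 with PGC-1a3, and Pxmp4 and Pex6 with PGC-1a4. Nudt19 differed by 2.32 log2 for PGC-1a1 minus PGC-1a2 and by -1.83 log2 for PGC-1a2 minus PGC-1a4. Phyh differed by 1.86 and -1.66 log2 in the same pairs, and Scp2 by 0.96 and -1.04 log2. Nudt7 differed in 4 pairs, by 1.17 log2 for PGC-1a1 minus PGC-1a2, 0.99 for PGC-1a1 minus PGC-1a3, -1.22 for PGC-1a2 minus PGC-1a4 and -1.03 for PGC-1a3 minus PGC-1a4. Pxmp4 differed by -1.13 log2 and Cat by 0.67 log2 for PGC-1a2 minus PGC-1a4. Crat differed by 0.66 log2 for PGC-1a1 minus PGC-1a3 and by -0.74 log2 for PGC-1a3 minus PGC-1a4, and Pex6 by 0.71 log2 for PGC-1a3 minus PGC-1a4. With 3 arrays a group, no check for single outlying values was made beyond leaving out each array.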

How the results depend on the processing

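Of 120 calls of peroxisome genes over the 10 contrasts, 69 were kept under every alternative and 0 reversed; kept calls were 5 of 9 (PGC-1a1 against GFP), 0 of 9 (PGC-1a2), 0 of 4 (PGC-1a3) and 5 of 18 (PGC-1a4), and 11 of 11 for PGC-1a1 against PGC-1a3. Counts of called genes that moved by over 1.5 times were as follows, and the cause was not tested. With only the 2 groups in the fit, which leaves fewer arrays to estimate the spread, 5, 0, 0 and 6 genes were called for PGC-1a1 to PGC-1a4 against GFP, 1 for PGC-1a1 against PGC-1a4 and 2 for PGC-1a2 against PGC-1a3. Of all clusters, 1.68%, 0.741%, 0.154% and 4.35% were then called against GFP, and 3.9% and 2.97% in those isoform pairs. For PGC-1a3 against GFP (4 genes) the count was 7 after quantile normalization, 8 under array weights, 8 when clusters below the median were dropped, and 10 when each array's interquartile range was a covariate. Of all clusters 7.99% were called in the fit used above, and 9.69%, 13.2%, 21.8% and 9.66% in these settings. For PGC-1a2 against GFP (9) the count was 5 after median centring, where 5.8% of all clusters were called, against 9.33% before. For PGC-1a1 against PGC-1a4 (3) the count was 1 after median centring, 5 with a filter at the lower quartile, with clusters of 1 symbol only, or with a variance trend and robust estimation, 7 with the stricter filter or array weights, and 8 with the covariate. Of all clusters 9.08% were called in the fit used above and 5.85% after median centring. The other settings called 11.3% to 24%. For PGC-1a2 against PGC-1a3 (9) the count was 5 after median centring and 17 with array weights, where GFP replicate 2 had a weight of 0.254. Of all clusters 5.21% and 17.2% were then called, against 9.27% before.

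Leaving out 1 array gave 5 to 9 called genes for PGC-1a1, 5 to 12 for PGC-1a2, 3 to 5 for PGC-1a3 and 14 to 16 for PGC-1a4 against GFP. In the same order, 4.08% to 6.39%, 5.28% to 9.09%, 3.71% to 6.94% and 10.6% to 14.4% of all clusters were called. The isoform pairs gave 14 to 18 (PGC-1a1 against PGC-1a2), 11 to 11 (PGC-1a1 against PGC-1a3), 1 to 2 (PGC-1a1 against PGC-1a4), 6 to 12 (PGC-1a2 against PGC-1a3), 19 to 21 (PGC-1a2 against PGC-1a4) and 15 to 16 (PGC-1a3 against PGC-1a4), and the F-test 21 to 25. The shares of all clusters were 14.5% to 16.3%, 9.1% to 11.6%, 5.22% to 7.15%, 4.74% to 8.15%, 21% to 22.5% and 18.6% to 21.9%. The F-test called 27.3% to 33.8% of them. For PGC-1a1 against PGC-1a4 the count of 1 came without any PGC-1a1 array or without PGC-1a4 replicate 2 or 3.

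Whether replicate numbers pair the arrays was not settled. Of 30 same-numbered pairs, 11 deviated together at a correlation above 0.1 (-0.22 to 0.36), and 6 of 15 arrays were closest to one of the same number. Correlations of differently numbered pairs were not summarised beside these. With the replicate number as a block the counts against GFP were 9, 10, 5 and 18 for PGC-1a1 to PGC-1a4. Of all clusters 6.85%, 9.26%, 7.83% and 14.4% were then called. Signal near background limits Ehhadh and Pipox. Abcd2 and Pxmp2 also read low with GFP, at means of 4.37 and 4.48 log2, though never below the lower quartile.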
